A study of Mus musculus with 32 samples.

Results

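HNF4A sites at the starts of protein-coding genes were taken from 8 HNF4A ChIP-seq peak lists, one per mouse, made from jejunal intestinal epithelial cells (IECs). Peaks of the 8 lists that shared at least 1 bp were merged into 45552 sites. A merged site was counted as a gene-start site when it lay on chromosomes 1 to 19 or X and overlapped the window from 1000 bp before to 1000 bp after the start of a protein-coding gene record. Only the outer start of each gene record was used, and other starts of a gene were not examined. This gave 7074 gene-start sites, 15.5% of all merged sites, which marked 6386 of 22350 protein-coding genes (28.6%). The windows covered 1.6% of those chromosomes, and the 38249 remaining sites on them are called other sites here.

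The mice were male C57BL/6J animals aged 10 to 12 weeks, reared germ-free. 4 libraries came from mice that stayed germ-free and received a high-fat meal (GF+HFM), while 4 came from formerly germ-free mice that had carried a conventional microbiota for 14 days and were given the same meal (CV+HFM). The meal was an egg yolk emulsion given by gavage, and the jejunum was collected 2 hours later in both groups, so both conditions share the meal, and HNF4A libraries of mice without it were not used here. The cells were not sorted by type. In such bulk chromatin, fewer cells of a type and less signal per cell cannot be told apart.

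HNF4A is a nuclear receptor that binds DNA as a homodimer at direct repeats of a short half-site. In the small intestine it acts with its paralog HNF4G to maintain enterocyte identity, the brush border, and genes for the uptake and oxidation of dietary fat. Many vertebrate gene starts lie in CpG islands, stretches rich in the dinucleotide CpG where general factors such as SP1 bind, and others lie in CpG-poor DNA and are used in few tissues.

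The sequences below show what a match to the HNF4A motif looked like at gene-start sites that were wide or belonged to the gene groups described later. They are reference bases of mouse build mm9 (NCBIM37), printed along the strand of the gene, and capitals mark the match. Alpi and Ehhadh hold the 9-base HNF4 motif CAAAGTCCA on one strand or the other. The remaining sites hold a direct repeat of the half-site AGGTCA with 1 base between the copies (DR1), read on both strands with at most 2 mismatches.
Alpi, minus strand, chr1:88998182-88998245, match centred at −15 bp from the start: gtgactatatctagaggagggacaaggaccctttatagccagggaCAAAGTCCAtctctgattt
Ehhadh, minus strand, chr16:21788265-21788363, match at −397 bp: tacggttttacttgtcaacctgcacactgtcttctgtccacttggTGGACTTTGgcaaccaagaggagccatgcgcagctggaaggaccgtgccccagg
Vil1, plus strand, chr1:74455508-74455610, match at −391 bp: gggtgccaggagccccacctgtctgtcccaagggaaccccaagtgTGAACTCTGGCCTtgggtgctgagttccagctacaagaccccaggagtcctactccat
Grb7, plus strand, chr11:98307917-98308019, match in an intron or noncoding exon at 260 bp: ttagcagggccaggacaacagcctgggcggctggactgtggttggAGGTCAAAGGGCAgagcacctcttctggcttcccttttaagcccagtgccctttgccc
Apoc3, minus strand, chr9:46043830-46043932, match at −162 bp: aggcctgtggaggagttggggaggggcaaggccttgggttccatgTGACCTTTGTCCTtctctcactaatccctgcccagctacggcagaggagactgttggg
Hadh, minus strand, chr3:130974244-130974346, match in an intron or noncoding exon at 724 bp: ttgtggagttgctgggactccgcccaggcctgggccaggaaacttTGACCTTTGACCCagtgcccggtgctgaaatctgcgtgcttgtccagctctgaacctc
Pck1, plus strand, chr2:172978079-172978181, match at −419 bp: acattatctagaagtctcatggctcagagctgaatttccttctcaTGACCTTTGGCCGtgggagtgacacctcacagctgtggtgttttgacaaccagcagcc

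The matches at Alpi, Ehhadh, Vil1 and Grb7 lay inside peaks of all 8 libraries. Those at Apoc3, Hadh and Pck1 lay inside the peaks of all 4 GF+HFM libraries and of 3 CV+HFM libraries, and these sites are shown in addition because they belong to the fat and fasting metabolism described below. At each of them the remaining CV+HFM library had a peak in the site that did not cover the match.

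The sequences above were chosen because they hold a match, which 21 of 100 candidate sites had in printable form. Of the gene-start sites called in all 8 libraries, 4.95% held the 9-base motif and 7.33% a DR1 match. The printed sets therefore do not show a difference in motifs between kinds of site. The next sequences are the middle 100 bases of the UTR-free part shared by the 4 GF+HFM peaks at 2 sites that no CV+HFM library called. Capitals mark CpG dinucleotides, and neither stretch holds the 9-base motif or a DR1 match.
Uqcr10, minus strand, chr11:4604089-4604188: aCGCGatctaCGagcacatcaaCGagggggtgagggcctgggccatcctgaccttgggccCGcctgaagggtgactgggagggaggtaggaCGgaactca
Dpp8, plus strand, chr9:64880780-64880879: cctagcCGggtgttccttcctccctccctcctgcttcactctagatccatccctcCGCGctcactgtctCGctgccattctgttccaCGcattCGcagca

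The peak lists differed in length between the groups. A GF+HFM list held between 31061 and 36846 peaks and a CV+HFM list between 4533 and 29345 (p = 0.0286 in a two-sided exact permutation test, the smallest value that 4 against 4 libraries can give; such p-values measure the spread between these libraries). The lists hold positions only, with no read count or peak strength, so read depth is unknown and peak width is used here in place of strength. The narrowest peak of a GF+HFM list measured between 157 and 223 bp and that of a CV+HFM list between 52 and 171 bp, so widths in bp are not directly comparable between lists.

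Gene-start sites followed the length of the lists. The 4 GF+HFM libraries called 5811, 4435, 4605 and 4612 of the 7074 gene-start sites, and the 4 CV+HFM libraries called 3891, 1429, 2746 and 606. The groups did not overlap: a GF+HFM library called 4866 ± 635 sites and a CV+HFM library 2168 ± 1448 sites (mean ± SD, n = 4 each, exact permutation test, p = 0.0286). When every list was cut to its 4000 widest peaks, the libraries called 728 and 645 gene-start sites on average and the groups overlapped (exact permutation test, p = 0.314). In lists of equal length this count is nearly fixed by the share of peaks at gene starts. That share averaged 17.8% in GF+HFM and 15.2% in CV+HFM after the cut (exact permutation test, p = 0.286), and 12.6 to 16.2% of each full list. The cut also kept most of the list of 4533 peaks but a small part of the list of 36846, so unlike peaks were compared.

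Relative to the rest of the genome, gene starts did not stand apart in this difference. Gene-start sites were called at 0.95 ± 0.103 times the rate of other sites in GF+HFM and at 0.946 ± 0.0853 times in CV+HFM (mean ± SD, n = 4 each, exact permutation test, p = 0.886). The share of a library's peaks that lay at gene starts was 16.2, 14.6, 13.9 and 13.8% in GF+HFM and 13.5, 14.5, 13 and 12.6% in CV+HFM, with overlapping groups (exact permutation test, p = 0.114). Against the 1.6% of sequence that the windows hold, peaks lay at gene starts in every library more often than their share of the genome.

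**Figure D1:**
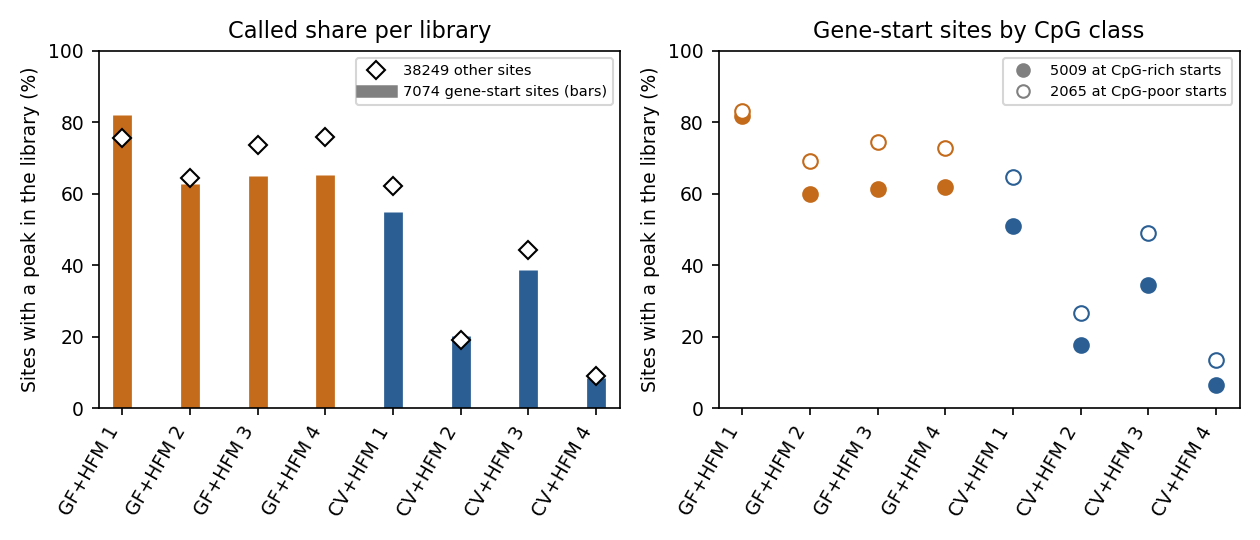
Share of sites with a peak in each library. Left, bars give the 7074 gene-start sites and diamonds the 38249 other sites; right, filled circles give gene-start sites at CpG-rich starts and open circles those at CpG-poor starts. GF+HFM bars run from 62.7 to 82.1% and CV+HFM bars from 8.57 to 55%, and the open circle lies above the filled one in all 8 libraries.

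Of the gene-start sites, 546 were called in all 8 libraries (7.72%) and 201 in 4 GF+HFM but 0 CV+HFM libraries (2.84%), and 0 in 4 CV+HFM and 0 GF+HFM libraries. Over all merged sites these shares were 7.56%, 2.79% and 0%, close to those at gene starts. Other classes of calls differed more. No CV+HFM library called 42.3% of gene-start sites (35.6% of all merged sites), and no GF+HFM library called 1.48% (2.67%). All 4 GF+HFM libraries called 45.8% (50.6%), and 25.2% were called in 1 library (21.6%). More GF+HFM than CV+HFM libraries called 87.8% of gene-start sites (86.5% of all merged sites), and more CV+HFM than GF+HFM libraries called 1.68% (2.86% of all merged sites). Of the 547 gene-start sites called in 4 CV+HFM libraries, 546 had peaks in 4 GF+HFM libraries, as did 3445 of 3450 over all merged sites.

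The count of 201 depended on single libraries, most on CV+HFM replicate 1, the longest CV+HFM list. Without GF+HFM replicate 2, 3 or 4 the count called in the remaining 3 GF+HFM libraries but no CV+HFM library was 362, 309 or 307 (5.24, 4.55 or 4.47% of gene-start sites, against 5.6, 4.04 or 3.95% of all merged sites). Without CV+HFM replicate 1, 717 gene-start sites were called in 4 GF+HFM but 0 of the remaining CV+HFM libraries (10.3%, against 10.9% of all merged sites). With the 4000 widest peaks of each list the count was 10 (0.618% against 0.575%). Of the 3237 gene-start sites called in all 4 GF+HFM libraries, CV+HFM replicates 1 to 4 called 91.5, 42.7, 76.6 and 18.5%. For the 19786 other sites that all 4 GF+HFM libraries called, these shares were 91.6, 36.2, 78.2 and 16.8%.

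One library stood apart at gene starts. GF+HFM replicate 1 called 831 gene-start sites that no other library called, 14.3% of its gene-start sites, against 179 to 337 such sites in the other GF+HFM libraries. Away from gene starts the same share was 6.58% in this library and 3.59 to 7.73% in the other 3. The sites that only this library called had a median merged width of 199 bp, 81.7% of them lay nearest to a CpG-rich start and their midpoints lay a median of 198 bp from the start. Without GF+HFM replicate 1, the difference in called gene-start sites between the groups was −2398 per library (CV+HFM minus GF+HFM, exact permutation test over 7 libraries, p = 0.0571).

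Sites gathered at the start itself. The median midpoint was 59 bp downstream of the nearest start, with quartiles at −205 and 388 bp, and 43.1% of sites covered the start. Midpoints fell outside protein-coding genes in 38.3% of sites, in an annotated UTR in 21.2%, in a coding exon in 8.28% and in the remaining gene body, mostly introns, in 32.1%. Of the 7074 sites, 823 lay in the windows of 2 genes and 14 in those of 3 or more, and of the marked genes 1179 had 2 sites and 174 had 3 or more.

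Coverage by peaks was highest between −52 and 33 bp from the start in the 8 libraries. At the start base itself a GF+HFM library covered 7.32 to 11.1% of protein-coding starts and a CV+HFM library 0.398 to 6.79%. Of the peak bases within 1000 bp of a start, 45.3 ± 1.35% lay upstream in GF+HFM and 47.1 ± 0.817% in CV+HFM (mean ± SD, n = 4 each, exact permutation test, p = 0.0857). With a window of 500 bp the shares were 47.7 and 50.5% and the groups did not overlap (exact permutation test, p = 0.0286).

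**Figure D2:**
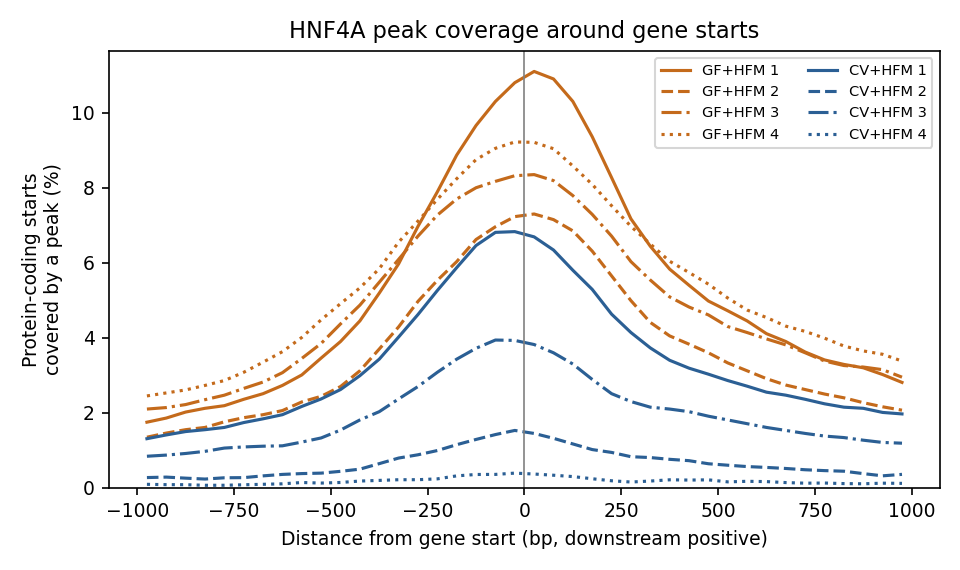
Share of the 22350 protein-coding starts covered by an HNF4A peak, against distance from the start in bins of 50 bp, one line per library. Each line is highest near the start, GF+HFM lines peak between 7.3 and 11.1% and CV+HFM lines between 0.392 and 6.83%.

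CpG-rich starts made up most of the set. A start was called CpG-rich when the 500 bp on either side had a GC share of at least 0.5 and an observed-to-expected CpG ratio of at least 0.6. Of the gene-start sites 5009 (70.8%) lay nearest to a CpG-rich start, although such starts are 44.2% of protein-coding starts, and 46.4% of CpG-rich genes but 14.5% of CpG-poor genes had a site.

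The sites at CpG-poor starts were the more widely shared ones. CpG-poor sites were called more often than CpG-rich sites in 8 of 8 libraries, with differences (CpG-rich minus CpG-poor) between −13.1 and −1.28 percentage points in GF+HFM and between −14.5 and −6.85 points in CV+HFM. In percentage points, the size of this gap did not differ beyond the spread between libraries (−8.61 ± 5.14 points in GF+HFM and −11 ± 3.7 in CV+HFM, mean ± SD, n = 4 each, exact permutation test, p = 0.514). GF+HFM replicates 1 to 4 called 81.8, 60, 61.3 and 62% of CpG-rich and 83.1, 69.2, 74.4 and 72.9% of CpG-poor sites. CV+HFM replicates 1 to 4 called 51, 17.6, 34.6 and 6.57% and 64.8, 26.6, 49.1 and 13.4%. A gap in points can only be small where few sites were called, and the gap relative to the called share was not tested. The share of CpG-rich starts among the sites a library called was 70.5, 67.8, 66.6 and 67.4% in GF+HFM and 65.6, 61.6, 63.1 and 54.3% in CV+HFM. These groups did not overlap (exact permutation test, p = 0.0286), but with the 4000 widest peaks of each list the means were 56 and 54.8% and the groups overlapped (exact permutation test, p = 0.686). The length of the lists moved with this share, and its part in the difference was not tested.

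Letters of the HNF4A motif were rarer at gene starts than at other sites. Motifs were searched on both strands in 201 bp windows at site midpoints. The 9-base motif was found at 118 gene-start sites (1.67%) and 5.51% of other sites, against 0.246% of windows centred on all protein-coding starts. Its inner 7 letters, CAAAGTC, which every 9-base match also holds, were found at 7.46% of gene-start sites, 16.2% of other sites and 2.33% of all starts. A DR1 match was found at 6.01% of gene-start sites, 14.2% of other sites and 2.05% of all starts.

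Letters of general promoter factors ran the other way. The SP1-type GC box GGGCGGGG was found at 11.2% of gene-start sites, 1.52% of other sites and 18.3% of all starts, and the ETS-type sequence CCGGAAGT at 3.42%, 0.361% and 4.22%. Letters bound by intestinal and inducible factors went both ways. The GATA-type AGATAAG was found at 1.91% of gene-start and 6.97% of other sites, and the AP-1-type TGACTCA at 3.27% and 8.7%. The CDX-type TTTATGG was found at 1.54% and 3.8%, and the HNF1 half-site GTTAAT at 3.44% and 6.96%. The CRE-type TGACGTCA was more frequent at gene-start sites, at 1% and 0.248%. A match is a run of letters and does not show that a factor bound there.

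Some sequence features moved with the number of libraries that called a site. Between sites called in 1 library and sites called in all 8, the share with CAAAGTC went from 4.48 to 14.5% at gene starts and from 12.9 to 23.1% at other sites. The share with a DR1 match went from 4.31 to 7.33% at gene starts, with its highest value, 8.57%, at sites called in 6 libraries, and from 12.7 to 12.4% at other sites. Over the same range the share with the GC box at gene starts went from 13.5 to 6.41%, and the share nearest to a CpG-rich start from 77.5 to 52.9%. The 201 sites called in 4 GF+HFM but 0 CV+HFM libraries held CAAAGTC in 3.98%, a DR1 match in 3.98% and the 9-base motif in 0 cases. Over all gene-start sites these shares were 7.46, 6.01 and 1.67%. Over the 588 gene-start sites called in any 4 libraries, which include the 201, they were nearer, at 5.27, 4.42 and 1.02%. The 1065 other sites with the same calls held the 3 motifs in 12.9, 17.5 and 4.51%, against 16.2, 14.2 and 5.51% of all other sites. Other sites called in any 4 libraries held them in 15.3, 16 and 5.37%. Of the 201 sites, 74.6% lay nearest to a CpG-rich start, against 72.8% of the 588 and 70.8% of all gene-start sites. The 926 gene-start sites with CAAAGTC or a DR1 match were called more often than the 6148 without in 8 of 8 libraries, by 4.89 to 13.2 percentage points in GF+HFM and 5.92 to 16.8 points in CV+HFM.

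**Figure D3:**
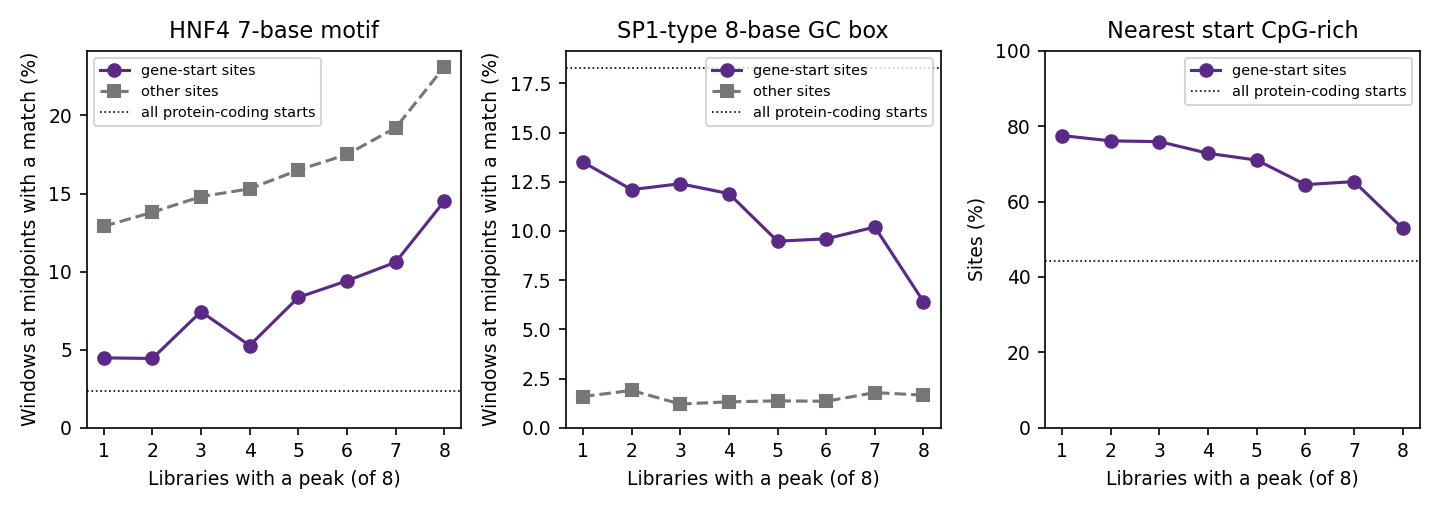
Sequence features against the number of libraries with a peak. Left and middle, share of 201 bp windows with the 7-base HNF4 motif and with the 8-base GC box at gene-start sites (circles) and other sites (squares); right, share of gene-start sites nearest to a CpG-rich start; the dotted line gives all protein-coding starts. The HNF4 motif share at gene starts was 14.5% at sites called in 8 libraries and 4.48% at sites called in 1.

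Position moved with the same features. Of the 1500 sites whose midpoint lay within 100 bp of a start, 4.6% held CAAAGTC and 19.4% the GC box, and of the 1871 sites with a midpoint more than 600 bp away, 11.4% and 4.49% did. The nearer sites were called less often in 7 of the 8 libraries. GF+HFM replicates 1 to 4 called 83.1, 57.3, 59.1 and 57.1% of sites within 100 bp, and 81.2, 67.7, 72.3 and 73% of sites over 600 bp away. For CV+HFM replicates 1 to 4 the shares were 51, 16.3, 31.4 and 5.67% within 100 bp, and 60.8, 23.5, 47.2 and 11.1% over 600 bp away. GF+HFM replicate 1 was the exception.

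Peaks at gene starts were about as wide as peaks elsewhere in the same list. Their median widths were 330, 313, 400 and 470 bp in GF+HFM and 334, 195, 286 and 104 bp in CV+HFM, against 311, 296, 408 and 464 bp and 316, 184, 273 and 104 bp for other peaks. Ranked within its own list, the median gene-start peak stood at the 52.1 ± 2.78 percentile of width in GF+HFM and at 53.4 ± 2.09 in CV+HFM (mean ± SD, n = 4 each, exact permutation test, p = 0.543). The merged sites themselves had a median width of 440 bp at gene starts and 438 bp elsewhere.

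Among the sites shared by all 8 libraries, the highest mean width percentile was at Vil1, which encodes villin, an actin-bundling protein of the brush border. Its peaks were 1160, 1160, 1346 and 1489 bp wide in GF+HFM and 1122, 481, 1082 and 379 bp in CV+HFM, and they stood on average at the 99th percentile of their lists. Next came Ppap2c, a lipid phosphate phosphatase, with 1340, 1391, 1470 and 1492 bp in GF+HFM and 1262, 357, 1096 and 382 bp in CV+HFM. At both genes the CV+HFM replicates 2 and 4, whose lists hold the narrowest peaks, lay far below the rest in bp, while the mean percentile was similar in the groups (99.2 and 98.8 at Vil1).

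The next 6 by this measure were Mast3, Dolpp1, Grb7, Pipox, Nfe2l2 and Cyp2d26, with mean percentiles between 98 and 98.6. Mast3 is a kinase, Dolpp1 a phosphatase of the dolichol cycle, Grb7 an adaptor of receptor tyrosine kinases and Cyp2d26 a cytochrome P450. Pipox is a peroxisomal oxidase, and Nfe2l2 encodes the oxidative stress factor NRF2. At Nfe2l2 the peaks were 1218, 1167, 784 and 1298 bp wide in GF+HFM and 1150, 540, 1095 and 415 bp in CV+HFM.

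On average over the GF+HFM lists, no site called in 4 GF+HFM but 0 CV+HFM libraries ranked near the top in width. The highest mean GF+HFM percentile was 79.6, at Dpp8, a cytosolic dipeptidyl peptidase, where peaks were 782, 594, 426 and 682 bp wide. Uqcr10, a small subunit of respiratory complex III that shares this site with Zmat5, followed with 634, 535, 706 and 455 bp. The next were Ly75, Gdi2, Phf12, Asah2, 2310028O11Rik and Cd164, with mean percentiles from 77.2 down to 64.6, and the rest of the class lay no higher. Asah2 encodes the neutral ceramidase of the brush border, and Gdi2 a regulator of Rab proteins.

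1 gene-start site was called in at least 2 more CV+HFM than GF+HFM libraries, and such sites were rare everywhere, with 21 of 45552 merged sites (0.0461%). It lay at Eef2, a translation elongation factor, on chr10:80638625-80639421. Its peaks were 771, 419, 594 and 426 bp wide in CV+HFM and 547 bp in GF+HFM replicate 2, and replicates 1, 3 and 4 of GF+HFM had none. The mean width percentile of the CV+HFM peaks was 97.2, so the site was among the widest of those lists.

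Width ranks were compared between the groups at the 3445 sites called in all 8 libraries, 546 of them at gene starts, with limma on normal scores of the rank of width among these sites. At a Benjamini-Hochberg adjusted p under 0.05, 1 gene-start site was lower in CV+HFM and 0 were higher, against 0.116% lower and 0% higher over all 3445 sites, and 66 gene-start sites (12.1%) had an unadjusted p under 0.05, near the 11.6% of all sites tested. The site was at Cltc, the clathrin heavy chain, with peaks of 2204, 1628, 2352 and 1729 bp in GF+HFM and 830, 199, 335 and 52 bp in CV+HFM. The normal score fell by 3.15 ± 0.53 (SE) in CV+HFM (limma, adjusted p = 0.0228), and the groups did not overlap in width. The call was lost when GF+HFM replicate 1, 3 or 4 or CV+HFM replicate 2, 3 or 4 was left out, each of which gave 0 gene-start calls, and at the 4000 widest peaks. Without GF+HFM replicate 2 there were 3 gene-start calls among 14 over all sites, and without CV+HFM replicate 1 there were 6 among 21, of which 5 were lower in CV+HFM. The next 4 gene-start sites, at H2-Q2, Chka, Eps8l3 and Nop2, had score differences of −2, −1.96, −1.66 and −1.44 and did not pass (limma, adjusted p = 0.0945, 0.101, 0.156 and 0.179). The peak of 52 bp at Cltc in CV+HFM replicate 4 is the narrowest that list holds.

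**Figure D4:**
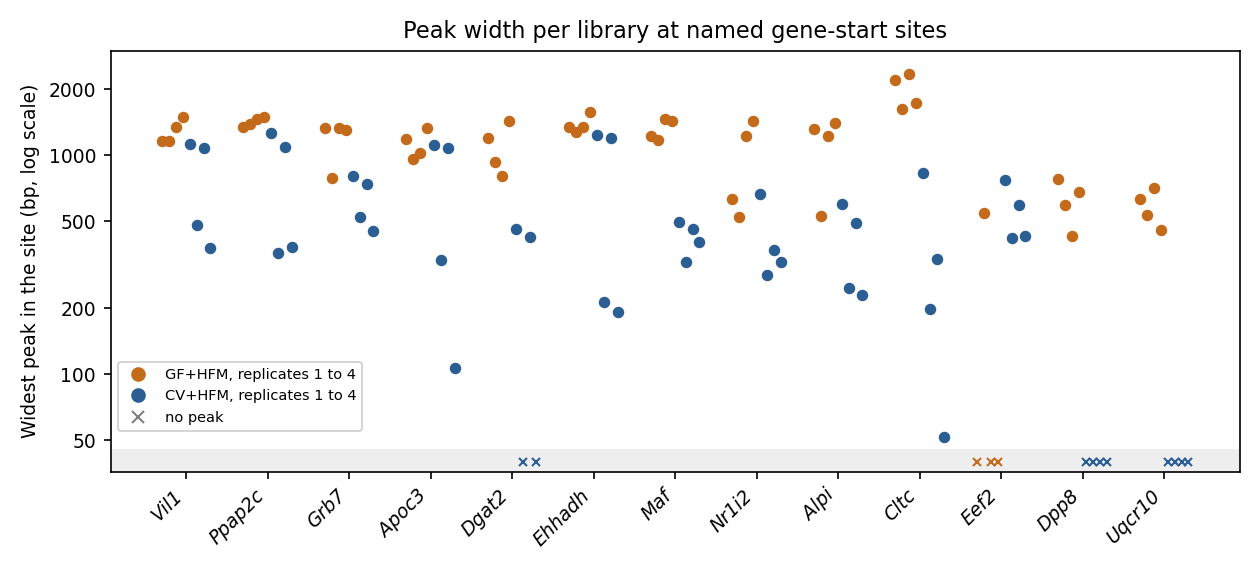
Width of the widest peak in each named gene-start site, on a log scale, for the 4 GF+HFM libraries (orange) and 4 CV+HFM libraries (blue), with crosses where a library had no peak. At Cltc the CV+HFM peaks run from 52 to 830 bp below GF+HFM peaks of 1628 to 2352 bp, and at Dpp8 and Uqcr10 no CV+HFM library had a peak.

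The genes marked were next counted by groups of known function. A gene start counted as called in a library when any of its sites was called there. Over all protein-coding genes 28.6% had a site, 2.68% had a start called in all 8 libraries, and 0.864% had one called in 4 GF+HFM but 0 CV+HFM libraries. At least 2 GF+HFM libraries called the start of 22.6% of genes, and at least 2 CV+HFM libraries that of 12.3%.

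Genes of dietary fat absorption and chylomicron assembly had the highest share of starts called in all 8 libraries among the lists counted (33.3%). Of 24 genes, 19 had a site (79.2%), 18 had a call in at least 2 GF+HFM libraries, 16 in at least 2 CV+HFM libraries, 8 in all 8 and 0 in 4 GF+HFM but 0 CV+HFM. The site at Apoc3, a protein of triglyceride-rich lipoproteins whose DR1 match is printed above, was 1190, 959, 1029 and 1328 bp wide in GF+HFM and 1114, 333, 1081 and 107 bp in CV+HFM. Dgat2 and Dgat1, the enzymes of the last step of triglyceride synthesis, were called in all 4 GF+HFM libraries.

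At Dgat2 the peaks were 1201, 927, 807 and 1431 bp wide in GF+HFM and 460 and 422 bp in CV+HFM replicates 1 and 3. At Dgat1 all 8 libraries had a peak, of 860, 644, 1043 and 893 bp in GF+HFM and 735, 261, 486 and 183 bp in CV+HFM. Agpat9, an acyltransferase, and Apoa1, the main protein of high-density lipoprotein, were also called in all 8, and Npc1l1, the intestinal cholesterol transporter, in 4 GF+HFM and 2 CV+HFM libraries. The 5 genes without a site were Apoa5, Mttp, Sar1b, Cd36 and Scarb1, so the starts of the microsomal triglyceride transfer protein and of 2 lipid receptors held no peak in any list.

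Fatty acid oxidation genes had a site at 24 of 29 starts (82.8%), 21 called in at least 2 GF+HFM and 17 in at least 2 CV+HFM libraries, 5 in all 8 and 0 in 4 GF+HFM but 0 CV+HFM. The highest width percentile was at Ehhadh, the peroxisomal bifunctional enzyme, with 1346, 1276, 1348 and 1569 bp in GF+HFM and 1239, 215, 1198 and 192 bp in CV+HFM. The others in this order were Hadh, Hsd17b4, Etfa, Pdk4 and Acadl, of mitochondrial or peroxisomal oxidation and its control. Pdk4, a kinase that restrains pyruvate oxidation, had peaks of 803, 729, 809 and 821 bp in GF+HFM and 496, 275, 474 and 52 bp in CV+HFM. Cpt1a, the carnitine palmitoyltransferase that admits fatty acids to mitochondria, had 1 narrow peak of 224 bp in GF+HFM replicate 3.

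Of 28 brush border genes, 20 had a site (71.4%), all 20 called in at least 2 GF+HFM and 16 in at least 2 CV+HFM libraries, 6 in all 8, and 1 in 4 GF+HFM but 0 CV+HFM. After Vil1 came Alpi, the intestinal alkaline phosphatase, with 1321, 526, 1221 and 1403 bp in GF+HFM and 601, 249, 492 and 230 bp in CV+HFM. The amino acid transporter Slc7a9, the protocadherin Cdhr5, the trehalase Treh and the myosin Myo7b followed. The exception in CV+HFM was Dpp4, a brush border peptidase, with peaks of 428, 306, 264 and 352 bp in GF+HFM and none in CV+HFM. Sis, Lct, Anpep and Slc2a2, among the best known brush border genes, had no site within the window.

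Intestinal transcription factors had a site at 19 of 23 starts (82.6%), called in at least 2 GF+HFM libraries at 13 and in at least 2 CV+HFM libraries at 10, in all 8 at 1 and in 4 GF+HFM but 0 CV+HFM at 2. Maf was the one called in all 8, with 1225, 1171, 1466 and 1436 bp in GF+HFM and 494, 327, 459 and 402 bp in CV+HFM. These widths did not overlap between the groups, but widths in bp are not directly comparable between lists. The limma comparison of width ranks did not call the site at Maf. Cdx1, Gata5, Isx and Cdx2 were among those that followed, called in 4 GF+HFM and 2 or 3 CV+HFM libraries. The 2 called in 4 GF+HFM but 0 CV+HFM libraries, named here after their values were seen, were Foxa3 and Hnf4a itself. At Hnf4a the site on chr2:163332159-163332533 lay 198 bp upstream of the outer start, with narrow peaks of 291, 315, 352 and 374 bp. Any other start of Hnf4a was not examined, so the 0 CV+HFM calls concern this start alone.

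Nuclear receptors had a site at 17 of 24 starts (70.8%), 16 called in at least 2 GF+HFM and 14 in at least 2 CV+HFM libraries, 3 in all 8 and 0 in 4 GF+HFM but 0 CV+HFM. Nr0b2, the small heterodimer partner, Nr1i2, the pregnane X receptor, and Nr5a2, a regulator of bile acid genes, led by width percentile, followed by Nr1i3, Nr1h3 and Nr3c1. Nr1i2 had peaks of 633, 525, 1219 and 1428 bp in GF+HFM and 669, 284, 370 and 327 bp in CV+HFM. Nr1h4, the bile acid receptor, Vdr and Ppard had no site.

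The housekeeping groups, with mostly CpG-rich starts, are read beside all CpG-rich genes. Of 76 respiratory chain genes, 81.6% of them CpG-rich, 51 had a site (67.1%), 40 had a call in at least 2 GF+HFM libraries, 19 in at least 2 CV+HFM libraries, 1 in all 8 and 1 in 4 GF+HFM but 0 CV+HFM. The last was Uqcr10, and the highest width percentiles were at Uqcrc2 and Cox5a, with 825, 670, 972 and 617 bp and 760, 446, 739 and 792 bp in GF+HFM. Over all CpG-rich genes 46.4% had a site, 36% had a call in at least 2 GF+HFM and 18.2% in at least 2 CV+HFM libraries. Of all CpG-rich genes 3.36% were called in all 8 libraries and 1.53% in 4 GF+HFM but 0 CV+HFM. For the respiratory chain these last 2 shares were 1.32% each, so neither count stood above that of CpG-rich genes.

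Mitochondrial ribosomal proteins had a site at 40 of 73 starts (54.8%), 33 called in at least 2 GF+HFM and 18 in at least 2 CV+HFM libraries. All 8 libraries called 2 of these starts, and 4 GF+HFM but 0 CV+HFM libraries called 2 (2.74% each, against 3.36 and 1.53% of CpG-rich genes). Cytosolic ribosomal proteins had a site at 31 of 76 starts (40.8%) and proteasome subunits at 16 of 41 (39%), with 1 start called in all 8 libraries in each. By width percentile, Mrpl33 and Mrpl2 led the mitochondrial ribosome, Rpl10a and Rpl27 the cytosolic one, and Psma4 and Psma2 the proteasome. Circadian clock genes had a site at 9 of 15 starts (60%), with Arntl, the BMAL1 gene, called in all 8 and Bhlhe40 in 4 GF+HFM but 0 CV+HFM.

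Among genes of other cell types the share with a site differed by list. Stem cell and cell cycle genes had a site at 4 of 28 starts (14.3%), with Mcm7 called in all 8 libraries. Enteroendocrine genes had 1 of 17, at Sct, the secretin gene, which shares its site with Cdhr5. Immune cell markers had 1 of 15, at Itgam, and mesenchymal markers 0 of 15. Goblet and Paneth cell genes had 6 of 13 (46.2%), namely Clca1, Xbp1, Lyz1, Spink4, Tff3 and Itln1, with 0 called in all 8.

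Genes of the response to microbes had a site at 8 of 27 starts (29.6%), against 28.6% of all genes and 14.5% of CpG-poor genes. Of the 27 starts 14.8% were CpG-rich. At least 2 GF+HFM libraries called 5 starts, at least 2 CV+HFM libraries 1, and all 8 libraries 0. GF+HFM replicates 1 to 4 called 5, 4, 3 and 4 starts, and CV+HFM replicates 1 to 4 called 7, 0, 1 and 0. More GF+HFM than CV+HFM libraries called 6 starts, and more CV+HFM than GF+HFM libraries called 1. Reg3b, an antimicrobial lectin, had peaks of 271 and 201 bp in GF+HFM replicates 1 and 2 and 212 bp in CV+HFM replicate 1. Duox2, an epithelial oxidase that shares its site with Duoxa2, had peaks of 233, 175 and 370 bp in GF+HFM replicates 1 to 3 and 184 bp in CV+HFM replicate 1. The peaks at Reg3b and Duox2 were narrow, and at neither of these genes did the group called in more libraries include all of its libraries.

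Genes better known from liver had a site at 5 of 21 starts (23.8%), 2 of them called in all 8. Those were Pck1, an enzyme of gluconeogenesis, with 1029, 775, 991 and 1359 bp in GF+HFM and 927, 311, 681 and 84 bp in CV+HFM, and G6pc, the last enzyme of that pathway, with 894, 726, 749 and 1197 bp and 753, 536, 720 and 369 bp. Olfactory receptor genes, most of which are expressed mainly in the nose, had a site at 5 of 1087 starts (0.46%).

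**Figure D5:**
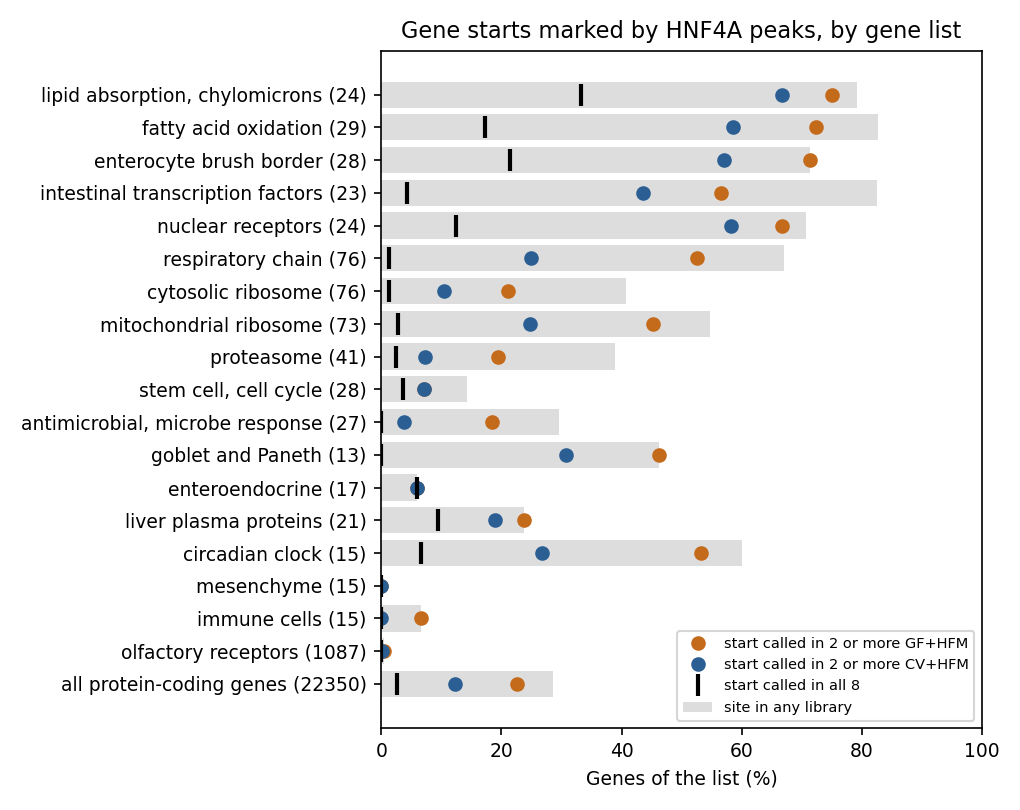
Share of the genes of each list whose start held an HNF4A site in any library (grey bars), was called in at least 2 GF+HFM (orange) or at least 2 CV+HFM libraries (blue), or in all 8 (black tick), with the number of genes in parentheses. Fat absorption genes reach 79.2% for any library and 33.3% for all 8, against 28.6% and 2.68% of all protein-coding genes.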

How the data were processed

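HNF4A chromatin immunoprecipitation and sequencing of 4 GF+HFM and 4 CV+HFM mice gave 1 peak list each. Per the study's methods, the authors mapped the reads to mm9 by Bowtie2, and peaks came from MACS2 (version 2.1.1.20160309 in the submitters' processing notes) against 1 input library per condition, at a false discovery rate of 0.05 and a bandwidth of 300 bp. The deposited lists hold chromosome, start, end and name, with no p-value, fold or count, so width was used where a peak strength had been planned. No peak ended beyond an mm9 chromosome. Gene starts came from GENCODE M1. Group differences of 1 value per library were tested with exact permutation tests (70 relabellings, two-sided). Width ranks were tested with limma 3.58.1 (R 4.3.3), checked on simulated data. Each list was taken as 1 replicate. Genes were named by width percentile within each class or list, up to 8 a class and 6 a list; Foxa3, Hnf4a, Dpp4, Bhlhe40, Cpt1a and genes without a site were added after their values were seen. Members, lists and tests were chosen with earlier results of these data known. Alternatives are given in the closing section. Other assays of the series were not used here.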

Additional observations from a re-analysis of the deposited data

Results flagged for a closer look

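GF+HFM replicate 1 called 5811 gene-start sites, against 4435 to 4612 in the other 3 GF+HFM libraries. The gap to its nearest neighbour was larger, relative to the range of the group, than Dixon's test allows at the 95% level. 14 groups of 4 libraries were checked over 7 measures, and chance marks about 1 in 20 such groups. The list of this library was also the longest, with 36846 peaks, and 831 of its gene-start sites were called in no other library.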

How the results depend on the processing

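Same-numbered libraries did not deviate together in width rank at the sites called in all 8 libraries. Correlations of the deviations of their normal scores from the group means were 0.0534, 0.0746, −0.0776 and 0.138. The numbers were taken as names only, and pairing in the counts of called sites was not tested by these correlations. With a replicate block (exact sign flips over 4 pairs, smallest possible p = 0.125) the difference of −2698 gene-start sites and the difference of −6.92 points in CpG-rich share were no longer past the threshold, and limma with the number as a block called 2 gene-start sites. With the 4000 widest peaks the difference in called sites was −83, that in CpG-rich share −1.15 points, the count called in 4 GF+HFM but 0 CV+HFM libraries 10 and the limma count 0. With calls that cover 50% of the merged site, the difference in CpG-rich share was −5.41 points and missed the threshold (exact permutation test, p = 0.371), the 4 and 0 count was 341 and the limma count 0. All differences here are CV+HFM minus GF+HFM, and some that did not pass the threshold changed sign. With 50% covered, the difference in CpG gap was 3.47 points (means −8.6 and −5.13 in GF+HFM and CV+HFM) and that in relative rate 0.062 (0.963 and 1.03). With peaks of at least 300 bp, the difference in the share of peaks at gene starts was 0.736 points (15 and 15.8%), in relative rate 0.162 (1.04 and 1.2) and in CpG gap 1.11 points (−9.04 and −7.93), and the limma count was 0. The difference in relative rate also changed sign with a window of 500 bp (0.0116) and with starts of all biotypes (0.0193), and that in upstream share passed the threshold at 500 bp (2.85 points). Ranking widths in the whole list, an alternative chosen after seeing the data like the CpG-rich share, gave 0 limma calls.

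Leaving out 1 library at a time gave differences of −3274 to −2177 called sites, −8.44 to −4.63 points in CpG-rich share, and −0.0452 to 0.0372 in relative rate, which changed sign without GF+HFM replicate 1 (0.0372), GF+HFM replicate 2 (0.0033), CV+HFM replicate 1 (0.016) and CV+HFM replicate 3 (0.0192). Without any 1 GF+HFM library the differences in called sites and in CpG-rich share missed the threshold (exact permutation test, p = 0.0571). The 4 and 0 count ran from 201 to 717 and the limma count from 0 to 6. The cause of these changes was not tested. Covering 50% of a site gives no value for peak shares, width percentiles and upstream shares, and midpoints none for upstream shares. The width percentile kept its direction and side of the threshold under each alternative that gave a value. Depth is unknown, so a site without a peak was not detected in that list, not shown to be unbound.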
